A study of Mus musculus with 23 samples.

Results

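Blood leukocytes were followed in hypothalamus RNA through 7 genes: the T-cell genes Cd8a, Cd3e and Cd4, the neutrophil genes S100a8, S100a9 and Ly6g, and Ptprc, which marks all leukocytes. Each gene was read from the probe set that named it alone. Of the 7, 6 had such a probe set, 1 each, and Ly6g, a neutrophil surface protein, had none, so it was not analysed here. The 6 measured genes belong to 18704 genes with a probe set of their own among 23492 probe sets.

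The samples were 23 Affymetrix whole-transcript arrays, 1 per sample, of total RNA from the hypothalamus of male db/db mice, which lack a working long form of the leptin receptor and become obese and diabetic. All mice were 8 weeks old and had been kept on chow for 2 weeks. They received intraperitoneal celastrol, a plant triterpenoid known to lower food intake in obese mice, or its solvent DMSO, at 25 µl of DMSO per day, and were examined after 6 h, 1 day or 4 days. There were 3 celastrol and 4 vehicle arrays at 6 h, 4 celastrol and 4 vehicle arrays at 1 day, and 4 celastrol and 4 vehicle arrays at 4 days. The labels give a celastrol dose of 250 µg/kg beside the 6 h time, and call the replicates of a group biological. They mention neither perfusion nor dissection borders, and no lean or untreated mice were among the samples. Of the vehicle arrays 4 stood apart by a high level of Prl, the pituitary hormone prolactin, between 9.24 and 11.28 against at most 7.68 on the other vehicle arrays: replicates 2 and 4 of 6 h, replicate 1 of 1 day and replicate 2 of 4 days. Celastrol arrays were not sorted by Prl.

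T cells carry the T-cell receptor, whose signal passes through the CD3 chains, CD3ε (Cd3e) among them. The co-receptors CD8 and CD4 divide T cells into those that read peptides on MHC class I and those that read them on class II. Neutrophils hold large amounts of the calcium-binding proteins S100A8 and S100A9, which pair into calprotectin. CD45 (Ptprc) is a phosphatase on the surface of all leukocytes, and in brain also on microglia. In healthy brain most T cells and neutrophils lie in vessels, meninges and choroid plexus, so in whole-tissue RNA their transcripts come along with blood and border tissue. In bulk RNA, fewer cells and less RNA per cell cannot be told apart.

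The start regions of both T-cell genes whose values moved together over the arrays, and of the neighbouring neutrophil pair, are shown from RefSeq (build GRCm38.p6), each from 250 bases before to 50 bases after the annotated start and read in the direction of the gene. Entries were found for 6 of the 7 genes. Capitals mark matches on either strand to 5 short motifs: TGTGGT, bound by RUNX factors, CAGGTG, an E-box, GGAAGT, an ETS site, TTGCNNAA, a C/EBP site, and TATAAA, the TATA box. No matches overlapped. The Cd8a region lies on the plus strand at chr6:71373177-71373476, the Cd3e region on the minus strand at chr9:45009562-45009861, the S100a8 region on the plus strand at chr3:90668821-90669120 and the S100a9 region on the minus strand at chr3:90695672-90695971.
Cd8a: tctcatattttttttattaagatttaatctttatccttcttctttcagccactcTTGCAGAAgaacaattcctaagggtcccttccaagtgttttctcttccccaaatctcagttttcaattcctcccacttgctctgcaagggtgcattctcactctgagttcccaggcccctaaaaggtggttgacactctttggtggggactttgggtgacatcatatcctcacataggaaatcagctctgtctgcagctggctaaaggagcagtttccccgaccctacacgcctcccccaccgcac
Cd3e: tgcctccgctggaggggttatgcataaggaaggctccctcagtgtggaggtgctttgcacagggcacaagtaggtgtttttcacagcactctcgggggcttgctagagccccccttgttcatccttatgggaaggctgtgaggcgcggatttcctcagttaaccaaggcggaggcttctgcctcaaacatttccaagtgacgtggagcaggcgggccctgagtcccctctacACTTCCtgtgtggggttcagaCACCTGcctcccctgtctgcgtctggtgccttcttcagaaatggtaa
S100a8: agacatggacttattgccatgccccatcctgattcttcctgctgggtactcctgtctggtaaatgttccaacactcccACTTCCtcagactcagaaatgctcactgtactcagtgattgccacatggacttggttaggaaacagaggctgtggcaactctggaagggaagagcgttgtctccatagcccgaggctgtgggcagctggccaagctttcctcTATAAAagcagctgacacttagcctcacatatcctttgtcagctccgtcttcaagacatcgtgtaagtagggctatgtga
S100a9: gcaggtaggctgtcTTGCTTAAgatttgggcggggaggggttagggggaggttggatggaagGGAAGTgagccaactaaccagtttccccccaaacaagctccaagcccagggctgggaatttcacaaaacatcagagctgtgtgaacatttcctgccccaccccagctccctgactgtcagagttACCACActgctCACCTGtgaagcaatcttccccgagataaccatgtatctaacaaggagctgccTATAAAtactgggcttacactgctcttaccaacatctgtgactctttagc

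The Cd8a window held 1 match, a C/EBP motif starting 196 bases before the start. The Cd3e window held an ETS motif 18 bases before the start and an E-box at base 4 of the transcript. S100a8 held a TATA box 30 bases before the start and an ETS motif 172 bases before it. S100a9 held 5 matches, 1 to each motif, with the TATA box at base 1, directly at the annotated start. These motifs are common: of 32851 promoters of the same length, 16.8% held the RUNX motif, 20.2% the E-box, 23.8% the ETS motif, 10.8% the C/EBP motif and 13.6% the TATA box. Cd8a and Cd3e shared no motif of the 5 in these windows. A match is a run of letters and says nothing of binding in these samples.

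All 6 leukocyte genes read low. Values are RMA values on a log2 scale, so a difference of 1 is a doubling. The mean over the 23 arrays was 7.74 for Cd3e, 7.36 for Ptprc, 7.26 for Cd8a, 6.90 for Cd4, 6.67 for S100a9 and 6.16 for S100a8, against a median of 8.65 over all genes. The share of genes with a lower mean was 35.2% for Cd3e, 28.9% for Ptprc, 27.5% for Cd8a, 21.8% for Cd4, 18.3% for S100a9 and 12% for S100a8. Probe sets differ in how well they bind, so these places are not an order of mRNA amounts. Among 1196 odorant, vomeronasal and trace amine receptor genes, which are read chiefly in sensory neurons of the nose, the median of the mean levels was 5.64 and the 95th percentile 7.14. As high as S100a8 stood 27.4% of those receptor genes, as high as S100a9 13.4%, as high as Cd4 8.61%, as high as Cd8a 3.85%, as high as Ptprc 3.09% and as high as Cd3e 1.34%. The files used here give no detection call for a probe set. Genes of the hypothalamus itself read far higher, with means of 13.05 for Pmch, the melanin-concentrating hormone precursor, and 12.81 for Hcrt, the orexin precursor.

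Over all arrays Cd8a lay between 6.92 and 7.52, Cd3e between 7.36 and 8.02, Cd4 between 6.67 and 7.17, S100a8 between 5.94 and 6.43, S100a9 between 6.47 and 6.93 and Ptprc between 7.15 and 7.52. The SD within groups was 0.0939 for Cd8a, 0.101 for Cd3e, 0.131 for Cd4, 0.111 for S100a8, 0.115 for S100a9 and 0.105 for Ptprc. For each gene the 200 genes nearest to it in mean level, 100 above and 100 below, were followed in the same way, and are called genes of like level.

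**Figure D1:**
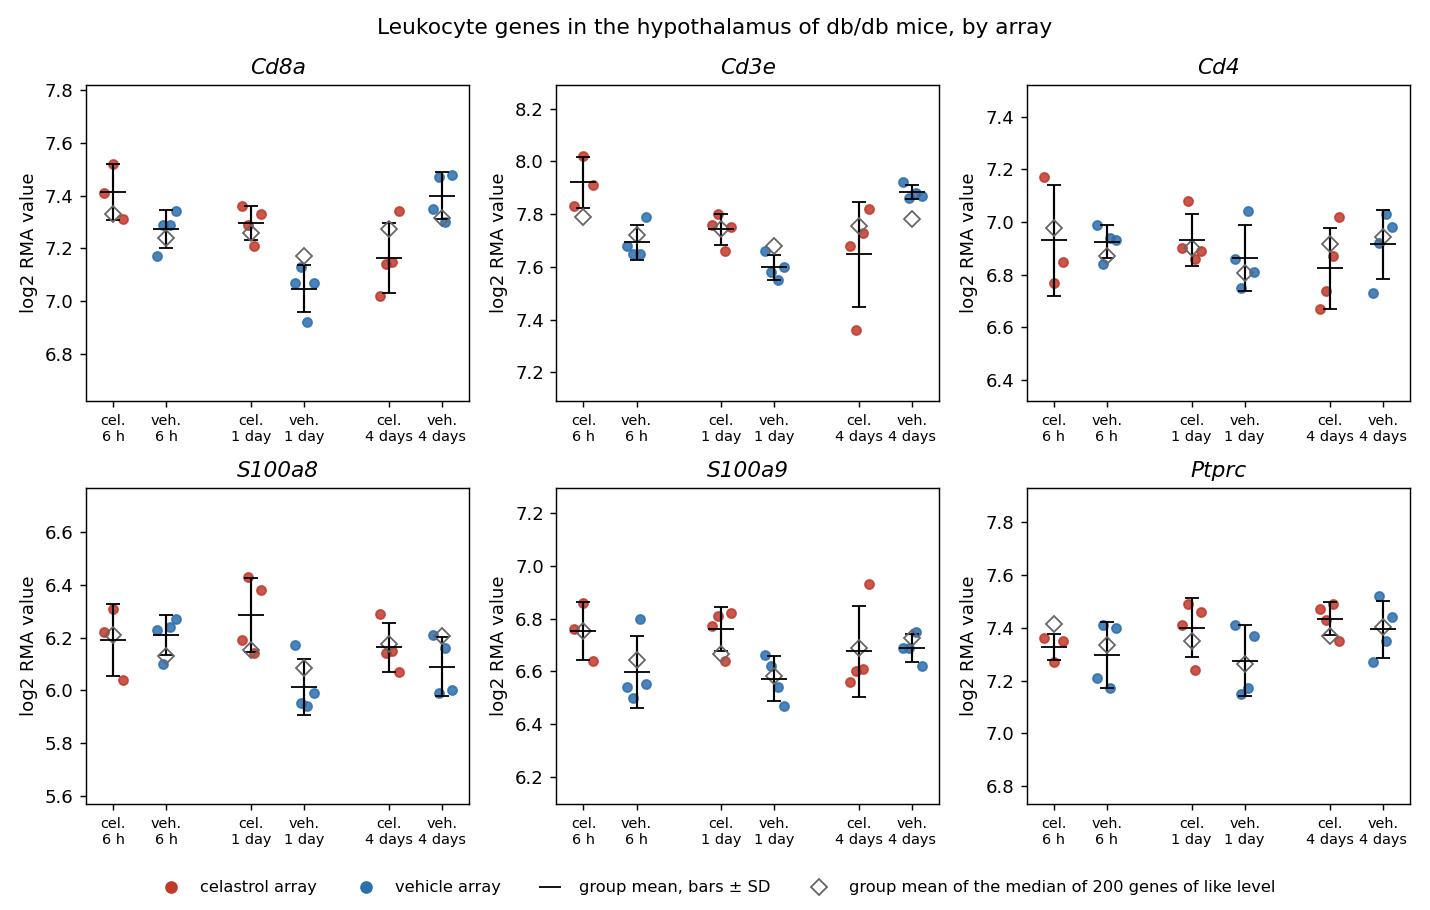
log2 RMA values of the 6 leukocyte genes on each array (points), with group means and SD (bars), for celastrol (red) and vehicle (blue) at 6 h, 1 day and 4 days. Each panel spans 1.2 log2 units, and open diamonds give the group mean of the median of the 200 genes of like level. Cd8a and Cd3e have their lowest group mean in vehicle at 1 day, and high means in celastrol at 6 h and vehicle at 4 days.

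Cd8a, the α chain of CD8 on cytotoxic T cells, read 7.41, 7.52 and 7.31 in celastrol mice at 6 h, against 7.17, 7.29, 7.29 and 7.34 in vehicle mice. At 1 day it read 7.36, 7.29, 7.21 and 7.33 with celastrol, against 7.07, 7.13, 6.92 and 7.07 with vehicle. At 4 days it read 7.02, 7.14, 7.15 and 7.34 with celastrol, against 7.35, 7.47, 7.30 and 7.48 with vehicle. All 4 celastrol arrays thus lay above all 4 vehicle arrays at 1 day, while at 6 h and 4 days the groups overlapped, at 4 days with 3 of the 4 celastrol arrays below every vehicle array. In order of group means, Cd8a was highest in celastrol at 6 h (7.41 ± 0.106) and vehicle at 4 days (7.40 ± 0.0901), then celastrol at 1 day (7.30 ± 0.0663), vehicle at 6 h (7.27 ± 0.0728), celastrol at 4 days (7.16 ± 0.131) and vehicle at 1 day (7.05 ± 0.0866; SD, n = 3 for celastrol at 6 h and 4 otherwise). Every pair of neighbours in that order overlapped, and the gap exceeded the larger SD of the pair only between vehicle at 4 days and celastrol at 1 day.

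Cd3e, the CD3ε chain that every T cell needs to signal, read 7.83, 8.02 and 7.91 in celastrol mice at 6 h, against 7.68, 7.65, 7.65 and 7.79 in vehicle mice. At 1 day it read 7.76, 7.80, 7.66 and 7.75 with celastrol, against 7.66, 7.58, 7.55 and 7.60 with vehicle. At 4 days it read 7.68, 7.36, 7.73 and 7.82 with celastrol, against 7.92, 7.86, 7.88 and 7.87 with vehicle. The groups did not overlap at 6 h, with celastrol above, or at 4 days, with celastrol below, and at 1 day only the lowest celastrol array reached the highest vehicle array. One celastrol array at 4 days, replicate 2, stood at 7.36, the lowest of all 23. The order of the Cd3e group means was the same as that of Cd8a: celastrol at 6 h (7.92 ± 0.0968), vehicle at 4 days (7.88 ± 0.0274), celastrol at 1 day (7.74 ± 0.0626), vehicle at 6 h (7.69 ± 0.0673), celastrol at 4 days (7.65 ± 0.2) and vehicle at 1 day (7.60 ± 0.0492). The only neighbours that did not overlap were vehicle at 4 days and celastrol at 1 day, 0.14 apart.

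Cd4, the co-receptor of helper T cells, showed no such order. It read 7.17, 6.77 and 6.85 in celastrol mice at 6 h, against 6.99, 6.84, 6.94 and 6.93 in vehicle mice. Its celastrol array at 7.17 was the highest of the 23, and the celastrol group spanned the vehicle group on both sides. The group means ran between 6.93 in celastrol at 1 day and 6.83 in celastrol at 4 days, with SDs of 0.0646 to 0.21, and every pair of neighbours overlapped.

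S100a8, the lighter chain of calprotectin, read 6.22, 6.31 and 6.04 in celastrol mice at 6 h, against 6.23, 6.10, 6.24 and 6.27 in vehicle mice. At 1 day it read 6.19, 6.43, 6.14 and 6.38 with celastrol, against 6.17, 5.95, 5.94 and 5.99 with vehicle. At 4 days it read 6.29, 6.14, 6.15 and 6.07 with celastrol, against 6.21, 5.99, 6.16 and 6.00 with vehicle. The groups overlapped at each time. At 1 day only the highest vehicle array, at 6.17, lay among the celastrol arrays. The highest group mean was celastrol at 1 day (6.29 ± 0.143) and the lowest vehicle at 1 day (6.01 ± 0.104), and no gap between neighbours exceeded the larger SD.

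S100a9, the partner chain, read 6.76, 6.86 and 6.64 in celastrol mice at 6 h, against 6.54, 6.50, 6.80 and 6.55 in vehicle mice. At 1 day it read 6.77, 6.81, 6.64 and 6.82 with celastrol, against 6.66, 6.62, 6.54 and 6.47 with vehicle. At 4 days it read 6.56, 6.60, 6.61 and 6.93 with celastrol, against 6.69, 6.69, 6.75 and 6.62 with vehicle. The groups overlapped at each time, and single high arrays stood apart in vehicle at 6 h (6.80) and in celastrol at 4 days (6.93). Group means lay between 6.76 ± 0.0853 in celastrol at 1 day and 6.57 ± 0.0829 in vehicle at 1 day. Across the 23 arrays S100a8 and S100a9, whose proteins act as a pair, had a Pearson correlation of 0.42 (Spearman 0.44), and S100a9 and Cd8a one of 0.57 (Spearman 0.59). After subtracting on each array the median of the genes of like level, the order turned, with 0.33 between S100a8 and S100a9 and 0.24 between S100a9 and Cd8a.

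Ptprc, the CD45 gene, read 7.36, 7.27 and 7.35 in celastrol mice at 6 h, against 7.21, 7.41, 7.17 and 7.40 in vehicle mice. Its group means lay between 7.43 ± 0.0615 in celastrol at 4 days and 7.27 ± 0.133 in vehicle at 1 day, and every pair of neighbours overlapped. Because microglia also carry CD45, this probe set does not separate blood leukocytes from brain macrophages.

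Celastrol and vehicle were compared at each time with limma over all 18704 genes, and a gene was called where its Benjamini-Hochberg adjusted p was below 0.05. At 6 h 0 of the 6 leukocyte genes were called, as were 0.0% of all genes. Cd3e came nearest, 0.23 higher with celastrol (1.17-fold, SE 0.0748, 95% CI 0.07 to 0.38, adjusted p = 0.211). S100a9 was 0.16 higher (SE 0.083, adjusted p = 0.378) and Cd8a 0.14 higher (SE 0.0705, adjusted p = 0.356). Ptprc, Cd4 and S100a8 differed by 0.03, 0.005 and -0.01, with adjusted p between 0.855 and 0.985. Cd3e was also the only one of the 6 with a higher value at an unadjusted p below 0.05, which 8.56% of genes reached in that direction, and the only one whose celastrol arrays all lay above the vehicle arrays, as 5.97% of genes did. The Cd3e difference at 6 h shrank to 0.08 both with the SD over genes of each array as a covariate and with the red blood cell list as one. That of Cd8a became 0.02 and 0.06, and that of S100a9 -0.01 and 0.15.

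At 1 day 0 of the 6 genes were called, and 3 genes in all (0.016%). All 6 leukocyte genes were higher with celastrol, as were 54.1% of all genes, and their median difference was 0.17 against 0.009 over all genes. S100a8 was 0.27 higher (1.21-fold, SE 0.0749, 95% CI 0.12 to 0.43, adjusted p = 0.191) and Cd8a 0.25 higher (1.19-fold, SE 0.0653, 95% CI 0.12 to 0.39, adjusted p = 0.17). S100a9 was 0.19 higher (SE 0.0768, adjusted p = 0.332), Cd3e 0.14 higher (SE 0.0693, adjusted p = 0.401), Ptprc 0.13 higher (SE 0.0716, adjusted p = 0.476) and Cd4 0.07 higher (SE 0.0864, adjusted p = 0.79). S100a8, Cd8a and S100a9 reached an unadjusted p below 0.05, 3 of 6, where 8.31% of genes did so in that direction. Only Cd8a had all celastrol arrays above all vehicle arrays, as had 6.44% of genes. With arrays weighted by their quality, Cd8a (adjusted p = 0.0262) and S100a8 (adjusted p = 0.0355) were called at 1 day. With all 12 vehicle arrays as the control, Cd8a was 0.06 and Cd3e 0.02 higher at 1 day. With the SD over genes as a covariate Cd3e was 0.02 and Cd8a 0.15 higher at 1 day, and with the red blood cell list 0.05 and 0.20. S100a8 was 0.18 higher at 1 day with all 12 vehicle arrays, 0.22 with the SD over genes and 0.30 with the red blood cell list.

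At 4 days 0 of the 6 genes were called, and 0.0% of all genes. Cd8a was 0.24 lower with celastrol (difference -0.24, SE 0.0653, 95% CI -0.38 to -0.11, adjusted p = 0.311) and Cd3e 0.23 lower (difference -0.23, SE 0.0693, 95% CI -0.38 to -0.09, adjusted p = 0.354). Cd4 differed by -0.09, S100a9 by -0.02, Ptprc by 0.04 and S100a8 by 0.07, with adjusted p from 0.905 to 0.99. Cd8a and Cd3e reached an unadjusted p below 0.05, where 4.57% of genes did so in that direction, and Cd3e had all celastrol arrays below all vehicle arrays, as had 1.63% of genes. Without the celastrol array at 7.36 the Cd3e difference was -0.14 (adjusted p = 0.675). With all 12 vehicle arrays as the control, Cd8a was 0.08 and Cd3e 0.08 lower at 4 days (differences of -0.08 each).

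Averaged over the 3 times, 0 of the 6 genes were called, and 0.0% of all genes. S100a8 and S100a9 were each 0.11 higher with celastrol (1.08-fold, adjusted p = 0.296 and 0.309), and both reached an unadjusted p below 0.05, as did 8.28% of genes in that direction. The mean differences of Cd8a, Cd3e, Cd4 and Ptprc lay between -0.005 and 0.07.

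**Figure D2:**
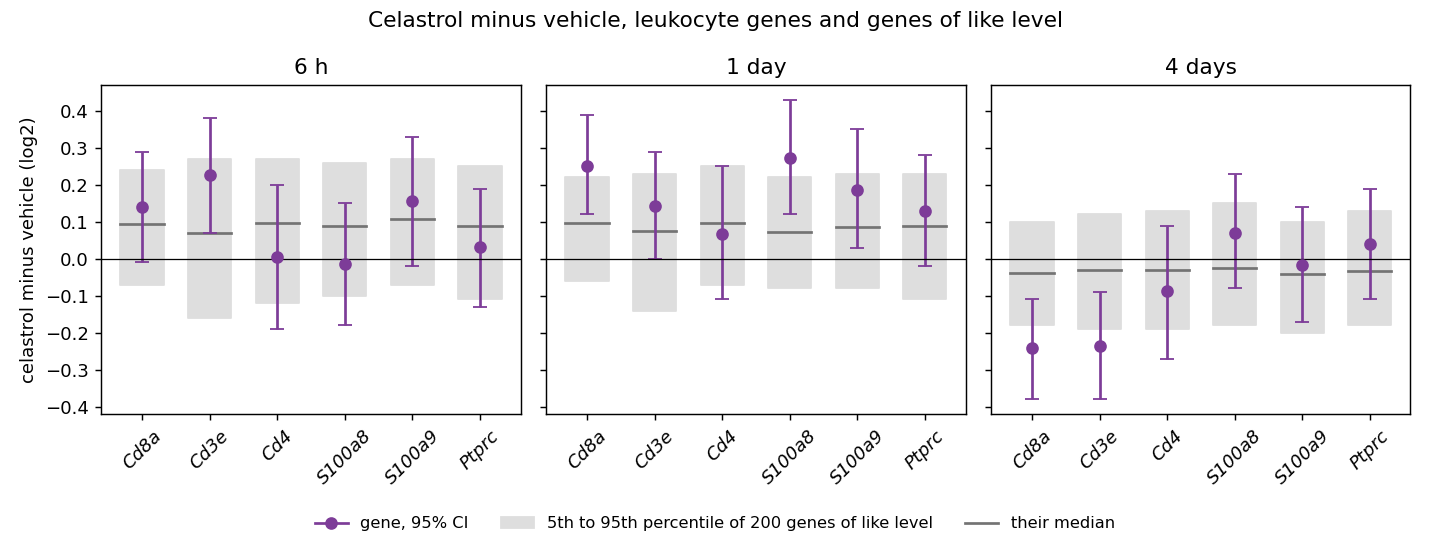
Celastrol minus vehicle on the log2 scale at 6 h, 1 day and 4 days for the 6 leukocyte genes (points with 95% confidence intervals). Grey boxes span the 5th to 95th percentile of the 200 genes of like level for each gene, and the grey line is their median. The grey medians lie above 0 at 6 h and 1 day and below 0 at 4 days, and Cd8a and Cd3e at 4 days and Cd8a and S100a8 at 1 day lie outside the boxes.

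Genes of like level leaned to the celastrol side at 6 h and 1 day and slightly to the vehicle side at 4 days. At 6 h the median difference of the 200 genes of like level lay between 0.07 and 0.11 for the 6 leukocyte genes, at 1 day between 0.07 and 0.10, and at 4 days between -0.04 and -0.02. At 1 day, 174 of the 200 genes near Cd8a were higher with celastrol, and 151 of the 200 near S100a8. A difference at least as large and in the same direction as that of Cd8a at 1 day was seen in 6 of its 200 genes of like level, and for S100a8 in 5 of 200. At 6 h the same held for 14 of the 200 near Cd3e and 71 of the 200 near Cd8a. At 4 days it held for 5 of the 200 near Cd8a and 4 of the 200 near Cd3e. For Cd4, S100a9 and Ptprc the counts ran from 26 of 200, for S100a9 at 1 day, up to 161 of 200, for Cd4 at 6 h. After taking off the median of the genes of like level, the difference of Cd8a was 0.05 at 6 h, 0.15 at 1 day and -0.20 at 4 days, that of Cd3e was 0.16, 0.07 and -0.20, and that of S100a8 was -0.10, 0.20 and 0.10.

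In vehicle mice 2 of the 6 genes differed between times, Cd8a (F test, adjusted p = 0.00773) and Cd3e (adjusted p = 0.0308). That test called 8.83% of all genes. Both rose at 4 days relative to 1 day, Cd8a by 0.36 (1.28-fold, SE 0.0653, 95% CI 0.22 to 0.49, adjusted p = 0.00328) and Cd3e by 0.29 (1.22-fold, SE 0.0693, 95% CI 0.14 to 0.43, adjusted p = 0.013). Among all genes 8.55% were called higher in that comparison. The 4 vehicle arrays of 4 days lay above all 4 of 1 day for both genes, as for 13.2% of genes. The other 4 leukocyte genes were 0.05 to 0.12 higher at 4 days, with adjusted p from 0.274 to 0.746. The median over the genes of like level was itself 0.15 higher near Cd8a and 0.12 higher near Cd3e, and 7 and 11 of the 200 differed by as much or more. Vehicle at 1 day against 6 h called 0 of the 6 genes and 0.0% of all genes, with Cd8a 0.23 lower (difference -0.23, adjusted p = 0.301) and all 4 of its arrays below those of 6 h, as for 3.61% of genes. Vehicle at 4 days against 6 h called 0 of the 6 and 3.91% of all genes, with Cd3e 0.19 higher (adjusted p = 0.102).

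The 2 calls among vehicle mice did not hold under every setting, and the cause was not tested. After quantile normalization of the gene values the F test gave adjusted p = 0.058 for Cd8a and 0.131 for Cd3e, and with the SD over genes of each array as a covariate 0.331 and 0.8. With the red blood cell list as a covariate they were 0.106 and 0.282, and with the choroid plexus list 0.137 and 0.407. Without the 4 vehicle arrays high in Prl they were 0.0369 and 0.054. Quantile normalization and each of the 3 covariates also lowered the number called among all genes, as given below. The SD over genes was 1.93 to 1.96 in vehicle at 1 day and 1.89 to 1.91 at 4 days. A difference between these times thus cannot be told apart from one in that SD. For 4 days against 1 day, both calls held without any 1 of the 8 arrays, with adjusted p up to 0.0126 for Cd8a and 0.0354 for Cd3e. The same calls were lost with each of the 3 covariates. The Cd8a difference was then 0.20 with the SD over genes (adjusted p = 0.463), 0.30 with red blood cells (0.0733) and 0.29 with choroid plexus (0.109), against 0.36 without a covariate. That of Cd3e was 0.09 (0.793), 0.18 (0.224) and 0.17 (0.311), against 0.29. After quantile normalization Cd8a was still called, at 0.22 (adjusted p = 0.0341), and Cd3e was not, at 0.18 (0.0868). In the F test over the 3 times the Cd3e call was lost without any 1 of 7 of the 12 vehicle arrays (adjusted p 0.0538 to 0.0739), replicates 2, 3 and 4 of 1 day and all 4 replicates of 4 days.

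Among celastrol arrays, 0 of the 6 genes differed between times in the F test, which called 0.246% of genes. Cd8a (adjusted p = 0.149) and Cd3e (adjusted p = 0.151) reached an unadjusted p below 0.05, as did 16.4% of genes. Celastrol at 4 days was 0.25 lower than at 6 h for Cd8a (difference -0.25, SE 0.0705) and 0.27 lower for Cd3e (difference -0.27, SE 0.0748), both at adjusted p = 0.132, and all 4 celastrol arrays of 4 days lay below the 3 of 6 h for Cd3e, as for 3.53% of genes. For Cd8a the 4 day mean was the lowest of the celastrol groups (7.16) and the highest of the vehicle groups (7.40), and likewise for Cd3e (7.65 in celastrol, 7.88 in vehicle).

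Whether the celastrol effect differed between times was tested directly. The F test over the 3 times called 0 of the 6 genes and 11 genes in all (0.0588%). Cd8a (adjusted p = 0.0677) and Cd3e (adjusted p = 0.0911) came nearest, and with S100a8 (adjusted p = 0.366) they reached an unadjusted p below 0.05, as did 13% of genes. Between single times, the Cd8a effect at 4 days was 0.49 below that at 1 day (difference of effects -0.49, SE 0.0923, 95% CI -0.68 to -0.30, adjusted p = 0.0297), and this was the only call among the 6 genes, where 0.0909% of all genes were called lower. For Cd3e the same difference was -0.38 (SE 0.098, adjusted p = 0.111). Between 4 days and 6 h the effects differed by -0.46 for Cd3e (adjusted p = 0.0746) and by -0.38 for Cd8a (adjusted p = 0.0933), with 0 of the 6 genes and 0.016% of all genes called. Between 1 day and 6 h no leukocyte gene was called, nor any other gene (0.0%), and S100a8 had the largest difference of the 6 at 0.29 (adjusted p = 1.0).

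The Cd8a call rested on a narrow margin. Of 16 fits that each left out 1 array of 1 day or 4 days, 8 gave an adjusted p above 0.05 (0.0711 to 0.0896): those without celastrol replicates 1, 2 or 4 or vehicle replicates 3 or 4 of 1 day, and those without celastrol replicates 1 or 2 or vehicle replicate 2 of 4 days. The adjusted p was 0.157 after quantile normalization, where the difference of effects was -0.37, and 0.64 with the SD over genes as a covariate (-0.34). It was 0.238 with the red blood cell list as a covariate (-0.43) and 0.103 without the 4 vehicle arrays high in Prl (-0.48). As described, 1 of the 200 genes of like level had as large a difference of effects in the same direction, and their median was -0.13. Both differences of effects that use 4 days share the vehicle arrays of that time, in which Cd8a and Cd3e were high.

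Cd8a and Cd3e varied together over the 23 arrays, with a Pearson correlation of 0.76 (Spearman 0.79), and 0.38 for deviations from the 6 group means. The part of array handling and normalization in this correlation was not tested, so the value is given as a description. Subtracting on each array the median of the genes of like level left a correlation of 0.58. Cd4 correlated with Cd8a at 0.24 and with Cd3e at 0.22, and Ptprc with Cd8a at 0.22, with Cd3e at 0.17 and with Cd4 at -0.01.

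The lower quartile of all gene values on an array, a measure of how high weak probe sets read, moved with both T-cell genes. Its correlation over the 23 arrays was 0.76 with Cd8a (Spearman 0.80, and 0.74 without the 2 arrays farthest from the median) and 0.82 with Cd3e (Spearman 0.88, and 0.82 without those 2). It was 0.61 with S100a9, 0.34 with Ptprc and 0.28 each with Cd4 and S100a8. The lower quartile averaged 7.17 ± 0.0447 in celastrol mice at 6 h (n = 3) and 7.08 ± 0.0369 in vehicle mice (n = 4), 7.10 ± 0.0236 and 7.02 ± 0.0282 at 1 day, and 7.12 ± 0.0724 and 7.16 ± 0.015 at 4 days (SD, n = 4 each). At 1 day the 4 celastrol arrays were all higher, by 0.08 on average (two-sided exact permutation test, p = 0.0286, the smallest 4 against 4 arrays can give, and 0.0571 after adjustment over 8 such tests). The 3 celastrol arrays of 6 h were also all higher, by 0.10 on average (exact p = 0.0571, adjusted 0.0762). There the lowest celastrol array stood at 7.124 and the highest vehicle array at 7.121. At 4 days the difference was -0.04 (exact p = 0.343, adjusted 0.343). Vehicle at 4 days was 0.14 above vehicle at 1 day (exact p = 0.0286, adjusted 0.0571). Its part in the Cd8a and Cd3e differences was not tested. The medians of the arrays over all probe sets lay within 8.57 to 8.64.

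**Figure D3:**
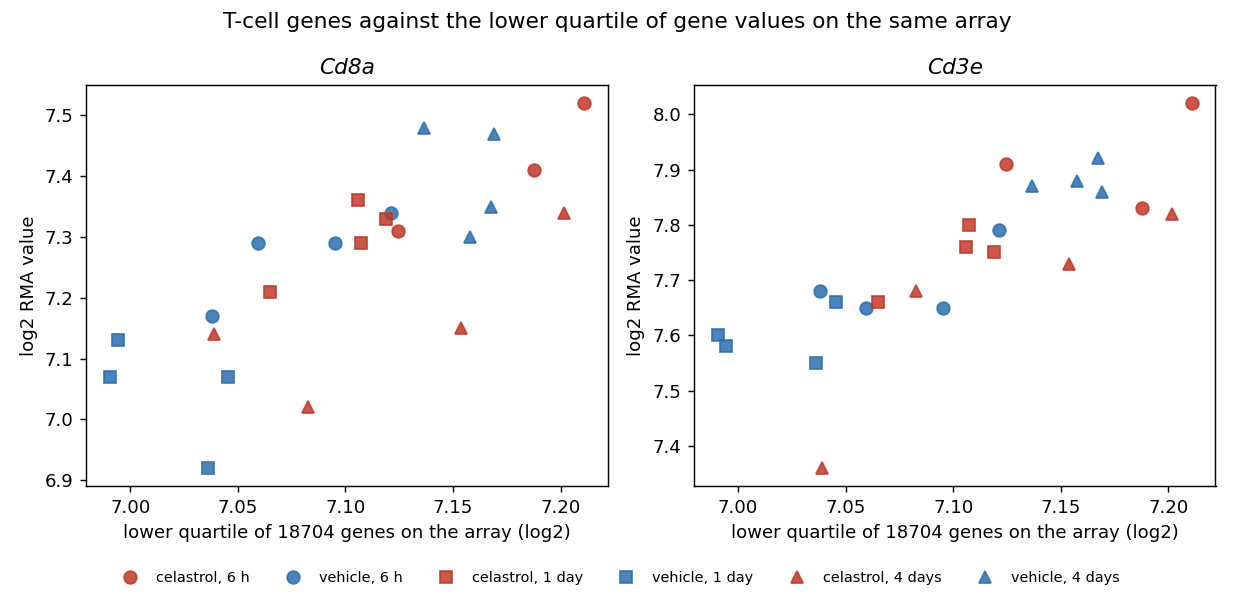
log2 RMA value of Cd8a (left) and Cd3e (right) on each of the 23 arrays against the lower quartile of the 18704 gene values on the same array. Colour gives the treatment and shape the time. Vehicle arrays of 1 day lie at the lower left and vehicle arrays of 4 days at the upper right. Celastrol arrays of 4 days are scattered more widely than either.

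Other genes of the same cells were read from lists of marker genes, with 0 genes called between celastrol and vehicle at 6 h, 1 day or 4 days in any of the 15 lists. Among all genes 0.0% were called at 6 h, 0.016% at 1 day and 0.0% at 4 days. Of 14 measured T-cell receptor and co-receptor genes, without the 3 described here, 10 were higher with celastrol at 6 h, 12 at 1 day and 1 at 4 days, with median differences of 0.11, 0.09 and -0.04 against 0.007, 0.009 and -0.001 over all genes. Of all genes 52.8%, 54.1% and 49.7% were higher at these times. The genes of like level to the 6 leukocyte genes had medians of 0.07 to 0.11 at 6 h, 0.07 to 0.10 at 1 day and -0.04 to -0.02 at 4 days. They were matched in level to the 6 leukocyte genes and not to the genes of this list. The part of signal level in the list medians was not tested. The T-cell list genes of highest mean were Zap70 and Lat, which relay the receptor signal, and Cd5 and Cd6, surface regulators of it. Cd5 differed by 0.13 at 6 h, 0.06 at 1 day and -0.15 at 4 days (adjusted p 0.247 to 0.607), and Zap70 by 0.12, 0.13 and 0.07. In vehicle mice Cd5 (adjusted p = 0.00747), the receptor chain Cd247 (0.0209) and the costimulator Cd27 (0.0401) differed between times in the F test. That test called 3 of the 14 genes, and 8.83% of all genes. At 4 days these 3 were 0.25, 0.32 and 0.23 above 1 day (adjusted p 0.0031, 0.00767 and 0.0322), the direction of Cd8a and Cd3e. Of the 14, 12 were higher in that comparison and 4 called higher, these 3 among them, against 60.7% and 8.55% of all genes. Such calls came in other lists too, as in 3 of 13 neutrophil, 3 of 5 platelet and 2 of 8 border macrophage genes. On an array the T-cell list averaged 6.75 to 6.77 in celastrol at 6 h and 6.64 to 6.68 in vehicle at 6 h. It averaged 6.72 to 6.74 in vehicle at 4 days and 6.58 to 6.64 in vehicle at 1 day.

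All 13 measured neutrophil genes were higher with celastrol at 6 h and at 1 day, and 8 at 4 days, with medians of 0.10, 0.13 and 0.02. At 6 h the list median lay within the range of the medians of the genes of like level to the leukocyte genes. It lay above that range at 1 day (0.07 to 0.10) and at 4 days (-0.04 to -0.02). Of the 200 genes near each leukocyte gene, 138 to 171 were higher at 6 h, 144 to 174 at 1 day and 65 to 77 at 4 days. The neutrophil adhesion protein gene Cd177 differed by 0.24, 0.16 and -0.15 (adjusted p 0.288 to 0.798), and Mmp9, a gelatinase of neutrophil granules, by 0.04, 0.20 and 0.10. Csf3r, the G-CSF receptor, differed by 0.13, 0.04 and -0.01. The granule protease genes Prtn3 and Elane, 2 of the 13, differed between vehicle times (F test, adjusted p 0.0441 and 0.0493). That test called 8.83% of all genes. Higher at an unadjusted p below 0.05 were 1 of the 13 neutrophil genes at 6 h, 4 at 1 day and 1 at 4 days, where 8.56%, 8.31% and 2.73% of all genes were.

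The other leukocyte lists were read in the same way. Of 9 B-cell genes 9 were higher with celastrol at 6 h, 9 at 1 day and 1 at 4 days (medians 0.11, 0.11 and -0.07), with Pax5, the B-cell identity factor, at 0.03, 0.10 and -0.03, and Cd79b, a chain of the B-cell receptor, at 0.11, 0.06 and -0.05. Of 10 NK and cytotoxic cell genes 9, 8 and 3 were higher (medians 0.06, 0.07 and -0.02), with Prf1, perforin, 0.24 higher at 1 day (adjusted p = 0.232). Of these 10 genes 1, Nkg7, differed between vehicle times (F test, adjusted p = 0.0186), where that test called 8.83% of all genes. Of 8 blood monocyte genes 4, 5 and 4 were higher (medians 0.012, 0.009 and -0.016), and Ccr2, the receptor that draws monocytes out of marrow, differed between vehicle times (adjusted p = 0.0398). Of 12 leukocyte genes that microglia share 5, 8 and 6 were higher (medians -0.011, 0.034 and 0.010), and Was and Cybb differed between vehicle times (adjusted p 0.0465 and 0.0124). Microglia genes, 14 measured, had medians of -0.028, -0.025 and -0.026, and 0 of them differed between vehicle times. C1qb, a complement gene of microglia, had a mean of 10.82 and differed by -0.18, -0.02 and -0.11 (adjusted p 0.372 to 0.953).

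Genes of blood and of tissues at the border of the hypothalamus were read beside these. All 6 measured red blood cell genes were higher with celastrol at 6 h, 4 at 1 day and 0 at 4 days (medians 0.20, 0.14 and -0.04), as were 52.8%, 54.1% and 49.7% of all genes. Higher at an unadjusted p below 0.05 were 4, 2 and 0 of the 6, where 8.56%, 8.31% and 2.73% of all genes were. The mean of the list on an array was 6.83 to 7.20, below the median of 8.65 over all genes, so this list reads low too. The globin genes Hba-a1, Hba-a2, Hbb-bs and Hbb-bt had no probe set of their own here. Over the 23 arrays the mean of the red blood cell list correlated with Cd3e at 0.74 (Spearman 0.74, and 0.66 without the 2 farthest arrays) and with Cd8a at 0.64 (Spearman 0.66, and 0.64). The T-cell list stood at 0.81 with Cd3e and 0.79 with Cd8a, and the B-cell list at 0.79 and 0.61. Platelet, NK and neutrophil lists stood at 0.59 to 0.63 with Cd3e and 0.52 to 0.56 with Cd8a. For deviations from group means, the red blood cell list stood at 0.52 with Cd3e and 0.30 with Cd8a. The T-cell list then stood at 0.58 and 0.51. Over the 23 arrays the microglia list, which read higher at 8.71 to 8.93, stood at 0.01 with Cd8a and -0.04 with Cd3e. Of 5 platelet genes the medians were 0.08, 0.03 and 0.02, and Pf4, Itga2b and Gp9 differed between vehicle times (F test, adjusted p 0.047, 0.0258 and 0.032). That test called 8.83% of all genes. Border macrophage genes, 8 measured, had medians of 0.05, 0.03 and -0.06, with Folr2 differing between vehicle times (adjusted p = 0.0117).

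Meningeal and perivascular fibroblast genes differed most at 4 days. All 11 were lower with celastrol at 4 days, with a median of -0.48, 7 of them at an unadjusted p below 0.05 (4.57% of all genes in that direction) and 0 called, against medians of 0.06 at 6 h and 0.04 at 1 day. In vehicle mice 11 of 11 were higher at 4 days than at 1 day, as were 60.7% of all genes, and 7 of them were called, as were 8.55% of all genes, with a median of 0.72. Their mean level was 8.46 to 8.78 in celastrol at 4 days and 8.51 to 9.36 in vehicle at 4 days. Its correlation with Cd3e over the 23 arrays was 0.46 and with Cd8a 0.34. Choroid plexus genes, 9 measured, had medians of -0.04, 0.03 and 0.02. Of these 1, Kcnj13, an ion channel of choroid plexus, differed between vehicle times (F test, adjusted p = 0.00948), as did 8.83% of all genes. Pituitary genes, 8 measured, had medians of -0.10, -0.11 and -0.20, brain endothelial genes, 9 measured, -0.04, -0.14 and -0.03, and hypothalamus genes, 14 measured, 0.02, 0.06 and 0.08. The part of blood, fibroblast or pituitary tissue in the leukocyte values was not tested. The covariate fits given above used the red blood cell and choroid plexus lists, and none used the fibroblast or pituitary list.

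**Figure D4:**
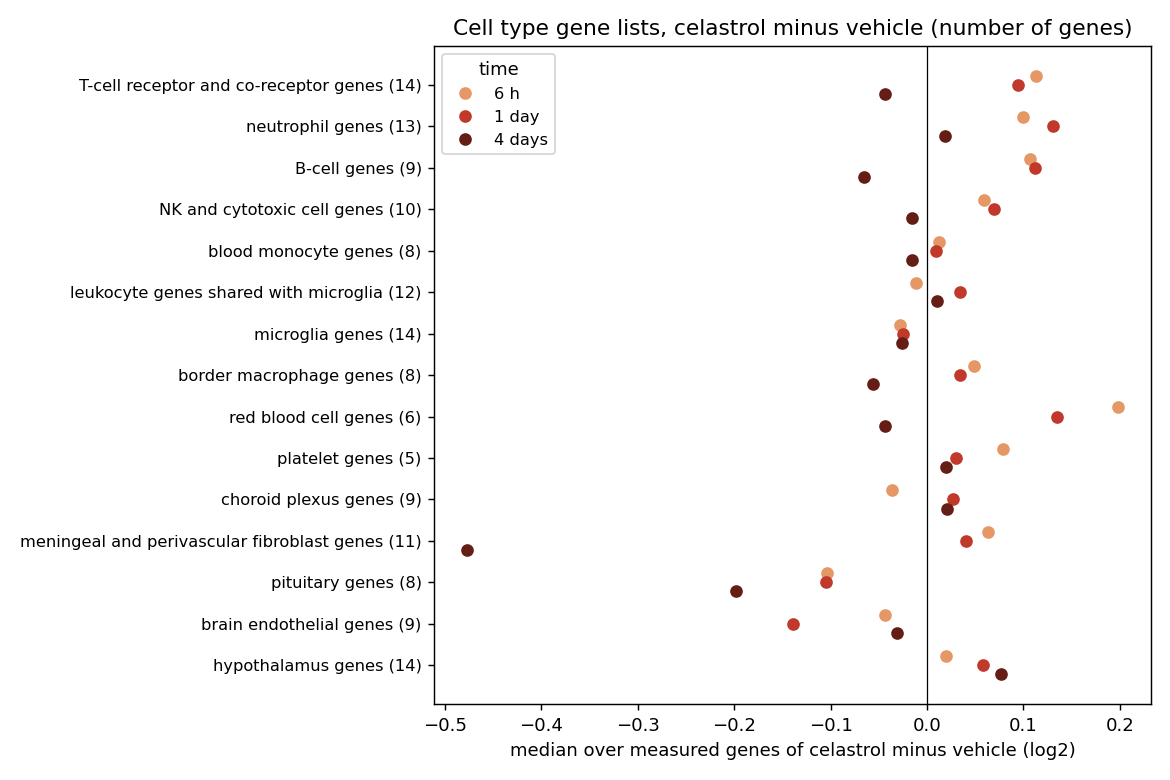
Median over the measured genes of each list of celastrol minus vehicle on the log2 scale, at 6 h, 1 day and 4 days, with the number of measured genes in brackets. T-cell, neutrophil, B-cell and red blood cell lists lie above 0 at 6 h and 1 day. By less, so do the NK, monocyte, platelet, border macrophage, fibroblast and hypothalamus lists. The fibroblast list lies at -0.48 at 4 days.

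The genes whose values followed each leukocyte gene most closely were mostly not leukocyte genes. Over 23 arrays Cd8a was followed by Olfr697, an odorant receptor (Pearson 0.87), Pitx3 (0.83) and Pheta2 (0.83), and Cd3e by Actrt3 (0.86), Tnfrsf13b, the TACI receptor of B cells (0.85), and Prrxl1 (0.84). For Cd4 they were Hoxb7 (0.72), Foxl1 (0.71) and Myot (0.69), for S100a8 Rab20, Ska3 and Tmem252 (0.71 each), for S100a9 Zar1 (0.78), Nxph3 (0.77) and Enpp7 (0.77), and for Ptprc Trmt44 (0.84), Pxn (0.78) and Extl1 (0.75). A Pearson correlation above 0.7 was reached with Cd3e by 357 of 18703 genes and with Cd8a by 270, but with Ptprc by 12, S100a8 by 4 and Cd4 by 2.

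Within groups the order changed. For deviations from the 6 group means the closest genes to Cd8a were Ltb4r1, a leukotriene B4 receptor of leukocytes (0.83), Olfr1471 (0.82) and Olfr1044 (0.80), and to Cd3e Nlrp1c-ps (0.87), Cxcl1, a neutrophil chemokine (0.85), and Adtrp (0.82). To Cd4 they were Olfr623 (0.80), Serpinb9c (0.75) and Fam205c (0.74), to S100a8 Capns1 (0.81), BC147527 (0.74) and Lim2 (0.74), to S100a9 Krt12 (0.82), Cgas (0.81) and Olfr384 (0.79), and to Ptprc Trmt44 (0.90), Cyp2t4 (0.83) and Mbd6 (0.77). These 18703 comparisons per gene were ranked on 23 arrays, so the highest values are a selection and are given as a description.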

How the data were processed

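RNA of 23 samples was measured on Affymetrix whole-transcript arrays. The deposited values are log2 RMA expression values per probe set, per the submitters' processing notes, which name RMA with no version, and the log2 scale was read from the values. The sources used here name neither a genome build nor the software. Groups came from sample titles. Of 23492 probe sets 20228 named 1 gene, 1399 several and 1865 none. Symbols were updated through the RefSeq table, and for 809 genes with several probe sets the one of highest mean was kept, leaving 18704 genes. limma 3.58.1 in R 4.3.3 fitted 6 group means with eBayes (17 residual and 5.424 prior degrees of freedom), tested on simulated data, with Benjamini-Hochberg adjustment over all genes at 0.05. Exact tests used scipy 1.17.1. Genes of like level are 200 per leukocyte gene. Named genes were the 7 listed, up to 4 genes of highest mean in each list and list genes with an adjusted p below 0.05 in an F test or a celastrol comparison, and the 3 closest genes by each correlation. Members, lists and tests were chosen with earlier results of these data known. The labels call replicates biological but do not say whether each is a separate mouse, so p-values measure the spread between these arrays. Their number limits the precision.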

Additional observations from a re-analysis of the deposited data

Results flagged for a closer look

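Of 30 groups of 4 values of the 6 measured leukocyte genes, 2 held an array whose gap to its nearest neighbour exceeded 0.829 of the range of the group, and chance sets apart about 1 group in 20. Both were S100a9 arrays, vehicle replicate 3 at 6 h at 6.80 and celastrol replicate 4 at 4 days at 6.93.

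For Cd8a and Cd3e the celastrol arrays lay on opposite sides of the vehicle mean at different times. Every celastrol array lay above the vehicle mean at 6 h and at 1 day and below it at 4 days for both genes. Of the 4 differences of effects that follow, only that of Cd8a at 4 days against 1 day passed the threshold. Against 6 h, the effect at 4 days differed by -0.382 for Cd8a (limma, adjusted p = 0.0933) and by -0.461 for Cd3e (adjusted p = 0.0746). Against 1 day it differed by -0.493 for Cd8a (adjusted p = 0.0297) and by -0.378 for Cd3e (adjusted p = 0.111). A change of side in every celastrol array was seen in 7.68% of all genes between 6 h and 4 days and in 6.56% between 1 day and 4 days. The differences of effects share the vehicle and celastrol arrays of 4 days.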

How the results depend on the processing

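No leukocyte gene was called between celastrol and vehicle at 6 h, 4 days or over the 3 times under any alternative run, nor at 1 day except with array weights, where 2 were. The setting without the 4 vehicle arrays high in Prl was chosen after seeing the data, and it leaves out no celastrol array. The mean of the pituitary list on celastrol arrays was 7.80 to 8.41 at 6 h, 7.25 to 7.97 at 1 day and 7.40 to 7.73 at 4 days. On vehicle arrays it was 7.18 to 9.30, 7.15 to 8.50 and 7.50 to 8.99. Without the lowest tercile of genes only Cd3e of the 6 is tested, which by itself ends the Cd8a calls. Of the vehicle F test 2 calls became 1 without the lowest tercile of genes, with median centring and without the Prl arrays, and 0 with quantile normalization, the array SD, the red blood cell list or the choroid plexus list as covariate; the cause was not tested. Between vehicle at 4 days and 1 day the 2 calls became 1 without the lowest tercile and with quantile normalization and 0 with each of the 3 covariates. The 1 call for the effect at 4 days against 1 day became 0 with a variance trend, without the lowest tercile, with quantile normalization, with each of the 3 covariates and without the Prl arrays, and 2 with array weights.

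Genes called at 6 h (main 0) were 1 with all vehicle arrays as control and 16 without the Prl arrays. At 1 day (main 3) they were 0 with a variance trend, the red blood cell covariate and without the Prl arrays, 1 with quantile normalization and the array SD, and 406 with array weights. At 4 days (main 0) they were 39 with all vehicle arrays. For the mean effect (main 0) they were 3 with the choroid plexus covariate. For the effect differing between times (main 11) they were 5 without the lowest tercile, and 0 with a variance trend, quantile normalization or any of the 3 covariates. For vehicle between times (main 1651) they were 734 with quantile normalization, 2491 with array weights, 2 with the array SD, 90 with red blood cell and 16 with choroid plexus covariates. For celastrol between times (main 46) they were 30 with quantile normalization, 26 with median centring, 96 with array weights, 27 with red blood cell and 18 with choroid plexus covariates.

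Some differences that were not called changed sign, most of them near 0. At 6 h these were Cd4 with quantile normalization (-0.093), the array SD (-0.14) and without the Prl arrays (-0.037), Ptprc with quantile normalization (-0.057), array weights (-0.0046), the array SD (-0.0040) and red blood cells (-0.030), S100a8 with median centring (0.0030), array weights (0.0054), red blood cells (0.031) and all vehicle arrays (0.090), and S100a9 with the array SD (-0.012). At 1 day it was Cd4 with quantile normalization (-0.016) and the array SD (-0.045). At 4 days it was S100a9 with quantile normalization (0.024), the array SD (0.055), choroid plexus (0.023) and all vehicle arrays (0.053). Over the 3 times it was Cd4 with median centring (0.0018) and red blood cells (0.016), Cd8a with the array SD (-0.0063) and Cd3e with the array SD and red blood cells (-0.024 each).

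Leaving out each array in turn gave 0 to 2 genes called at 6 h, 0 to 7 at 1 day, 0 to 39 at 4 days, 0 to 9 for the mean effect, 0 to 118 for the effect differing between times, 664 to 1933 for vehicle and 0 to 93 for celastrol between times. Leukocyte genes called ranged over 0 to 2 for the effect differing between times, 1 to 2 for vehicle between times, 0 to 2 for the effect at 4 days against 6 h and 0 to 2 against 1 day. With the celastrol array replicate 4 of 4 days left out, the F test for a differing effect called Cd8a (adjusted p = 0.0242) and Cd3e (0.0295). Differences ranged from -0.11 to 0.084 for Cd4, -0.075 to 0.061 for S100a8 and -0.0094 to 0.071 for Ptprc at 6 h, from -0.10 to 0.023 for S100a9 and -0.0021 to 0.081 for Ptprc at 4 days, and from -0.044 to 0.022 for Cd4 over the 3 times.

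The labels do not say whether celastrol and vehicle samples of 1 number were handled together. Correlations of their deviations from group means ran from -0.083 to 0.188, and those of samples of unlike number at the same time from -0.198 to 0.201. With a replicate block 1 gene was called at 1 day, 1 at 4 days, 1 for the mean effect and 6 for the differing effect, of which 1 was a leukocyte gene, Cd8a (adjusted p = 0.0266). The number of arrays and the low signal of these probe sets limit how small a difference can be seen.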
